A study of Mus musculus with 31 samples.

Results

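Hepatic expression of the carboxylesterase families Ces1, Ces2 and Ces3 was examined in mice lacking both isoforms of the carbohydrate response element binding protein (ChREBP) or its β isoform alone. The members were the 10 genes Ces1b, Ces1c, Ces1d, Ces1e, Ces1f, Ces1g, Ces2a, Ces2c, Ces2e and Ces3a, taken by their gene names from the 23968 gene names of the filtered array table. Each was read by 1 probe, and all 10 probes passed the filter on dim spots. In all, 19 carboxylesterase gene names were on the array and 17 of them passed. One-color Agilent arrays measured 31 livers, 1 array per mouse, and the number of mice per group sets the precision of each value. The total line gave 7 total ChREBP-KO mice, in which Mlxipl, the gene for ChREBP, is null, and 8 of their WT littermates. The β line gave 8 ChREBPβ-deficient mice, from which exon 1b of Mlxipl was removed by CRISPR/Cas9, and 8 of their own WT littermates. Per the study's methods the mice were C57BL6/J males, and no age was found for these animals in the sources used here. Both deletions are carried in the germline, so that no cell type was spared. All 31 mice, WT littermates included, were fasted for 24 hours and then refed for 18 hours with food and 20% glucose in the drinking water. Array values below are log2 of the quantile-normalized median signal of a probe, a difference is the mean of one group minus the mean of another on that scale, and a probe was called at a limma p, adjusted by Benjamini-Hochberg over 36059 probes, under 0.05.

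Carboxylesterases are serine hydrolases that cleave esters, thioesters and amides. Most liver forms are held in the lumen of the endoplasmic reticulum, where they hydrolyze drugs and pesticides on the one hand and triacylglycerol and cholesteryl esters on the other. In the mouse the families have expanded into tandem gene clusters, so that close paralogs lie side by side. ChREBP is a transcription factor activated by glucose metabolites that drives glycolytic and lipogenic genes in the refed liver. ChREBPα is its full-length form, and ChREBPβ is a shorter form made from another promoter.

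The probes are shown first, because paralogs of 1 cluster can be told apart only where their sequences differ. Probes are 60 bases long and their positions are those of the array annotation on mouse build mm9. The 6 Ces1 probes lie on the minus strand of chromosome 8 and the Ces2 and Ces3 probes on its plus strand. Of 165 pairs of a member probe with another carboxylesterase probe, 2 overlapped over at least 20 bases with at least 80% identity. The closest such pair within the members was that of Ces1b and Ces1c, whose probes share 55 aligned bases with 49 matches. Both of these probes cross an exon junction, Ces1b at chr8:95581314-95584247 and Ces1c at chr8:95624607-95628058. Capitals below mark the 6 bases at which each differs from the other, and the Ces1d probe, at chr8:95698949-95699008, is given for comparison.
Ces1b: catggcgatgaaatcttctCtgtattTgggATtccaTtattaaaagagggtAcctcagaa
Ces1c: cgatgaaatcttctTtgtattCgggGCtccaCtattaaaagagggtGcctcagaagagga
Ces1d: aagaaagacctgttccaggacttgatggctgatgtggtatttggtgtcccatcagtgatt
The other pair was that of Ces2c, at chr8:107378258-107378317, and Ces2b, at chr8:107362421-107362480, with 31 matches over 34 aligned bases. A stretch of 30 bases of each is given with the differing bases in capitals, beside the first 30 bases of the Ces2e probe at chr8:107458508-107458567, which overlapped no other carboxylesterase probe by that rule.
Ces2c: gcatCtgtcacctcagtctttgagctttcA
Ces2b: gcatTtgtcacctcagtctttgagctttcC
Ces2e: atgtatggaagtgacttcttgcctttcata
Of the 19 RefSeq accessions listed for the member probes, 18 were found in the RefSeq table of GRCm38.p6. By those accessions the Ces2c probe is also assigned to the pseudogene Ces2d-ps and the Ces3a probe, at chr8:107582236-107582295, also to Ces3b. Values under these 2 names may therefore include transcripts of the second gene. Signal of one gene's RNA on the other's probe was not tested, for Ces1b with Ces1c or for Ces2c with Ces2b. In every group the same mouse was lowest, and the same mouse highest, for the Ces2c and Ces2b probes. Whether these probes give separate readings was not tested.

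Of the 6 Ces1 members, 4 rose in total ChREBP-KO livers, namely Ces1b, Ces1c, Ces1d and Ces1g, none fell, and the differences of the 6 ranged from 0.20 to 0.62 with a median of 0.37. Over all members 4 of 10 were called higher and 1 lower, where 14.5% of all probes were called higher and 14.6% lower. The median difference was 0.21 over the 10 members and 0.01 over all probes. With bulk liver RNA, more RNA per hepatocyte and a larger share of hepatocytes cannot be told apart.

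Ces1d, the triacylglycerol hydrolase that mobilizes stored lipid for very low density lipoprotein (VLDL) assembly, showed the largest difference of the 10. Its signal had a lowest value of 12.90, a median of 13.44 and a highest value of 13.93 in the WT littermates, and 13.92, 14.09 and 14.16 in total ChREBP-KO mice. The values of the knockout mice lay close together, and 6 of 7 were above every WT littermate. The means were 13.43 ± 0.30 (SD, n = 8) and 14.05 ± 0.09 (SD, n = 7), a difference of 0.62 (SE 0.13, limma adjusted p = 0.000564), which corresponds to 1.54-fold. Within the 2 scan days the difference was 0.70 (adjusted p = 0.0125) and 0.54 (adjusted p = 0.0922).

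Ces1g, a lipid ester hydrolase of the hepatocyte, rose by a similar amount but with a wider spread. Its WT littermates ran from 10.76 through a median of 12.09 to 12.47 and the knockout mice from 11.81 through 12.62 to 12.74. WT replicate 2 was the lowest of all 15 mice of the line, and 4 of 7 knockout mice were above every WT littermate. The means were 11.84 ± 0.61 (SD, n = 8) and 12.45 ± 0.35 (SD, n = 7), and the difference was 0.62 (SE 0.20, limma adjusted p = 0.0186), or 1.53-fold. The difference was 0.75 (adjusted p = 0.0979) on scan day 1 and 0.47 (adjusted p = 0.297) on scan day 2, so that the call was not reached with the mice of either day alone.

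Ces1b and Ces1c, neighbors in the cluster, changed less but with little spread. For Ces1b the values ran from 12.46 through 12.63 to 12.82 in WT littermates and from 12.86 through 12.95 to 13.30 in total ChREBP-KO mice. It was the only member for which all 7 knockout mice lay above all 8 WT littermates, a separation that 3.26% of all probes showed. The difference was 0.38 (SE 0.08, limma adjusted p = 0.000949, 1.3-fold), and the scan days gave 0.33 (adjusted p = 0.0493) and 0.44 (adjusted p = 0.0358). Ces1c encodes the esterase that mouse liver secretes into plasma, where it breaks down ester drugs. Its values ran from 15.69 through 15.81 to 15.97 in WT littermates and from 15.95 through 16.06 to 16.13 in knockout mice, with 5 of 7 above every WT littermate. The difference was 0.21 (SE 0.06, limma adjusted p = 0.00654, 1.16-fold), with 0.24 (adjusted p = 0.0534) and 0.20 (adjusted p = 0.199) within the scan days.

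The other members of the family did not pass the test. Ces1e, known as egasyn, the partner that holds β-glucuronidase in the endoplasmic reticulum, averaged 12.87 ± 0.34 (SD, n = 8) in WT littermates and 13.24 ± 0.26 (SD, n = 7) in knockout mice, a difference of 0.37 with a 95% interval of 0.02 to 0.71 (limma adjusted p = 0.104). Ces1f, another triacylglycerol hydrolase, averaged 14.81 ± 0.17 (SD, n = 8) and 15.01 ± 0.25 (SD, n = 7), a difference of 0.20 with an interval of 0.02 to 0.39 (limma adjusted p = 0.0999). Both genes overlapped between the groups, with 2 of 7 and 3 of 7 knockout mice above every WT littermate. Ces1a and Ces1h, genes of the same cluster that were not among the 10 members, had differences of 0.22 (limma adjusted p = 0.101) and 0.27 (limma adjusted p = 0.295).

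**Figure D1:**
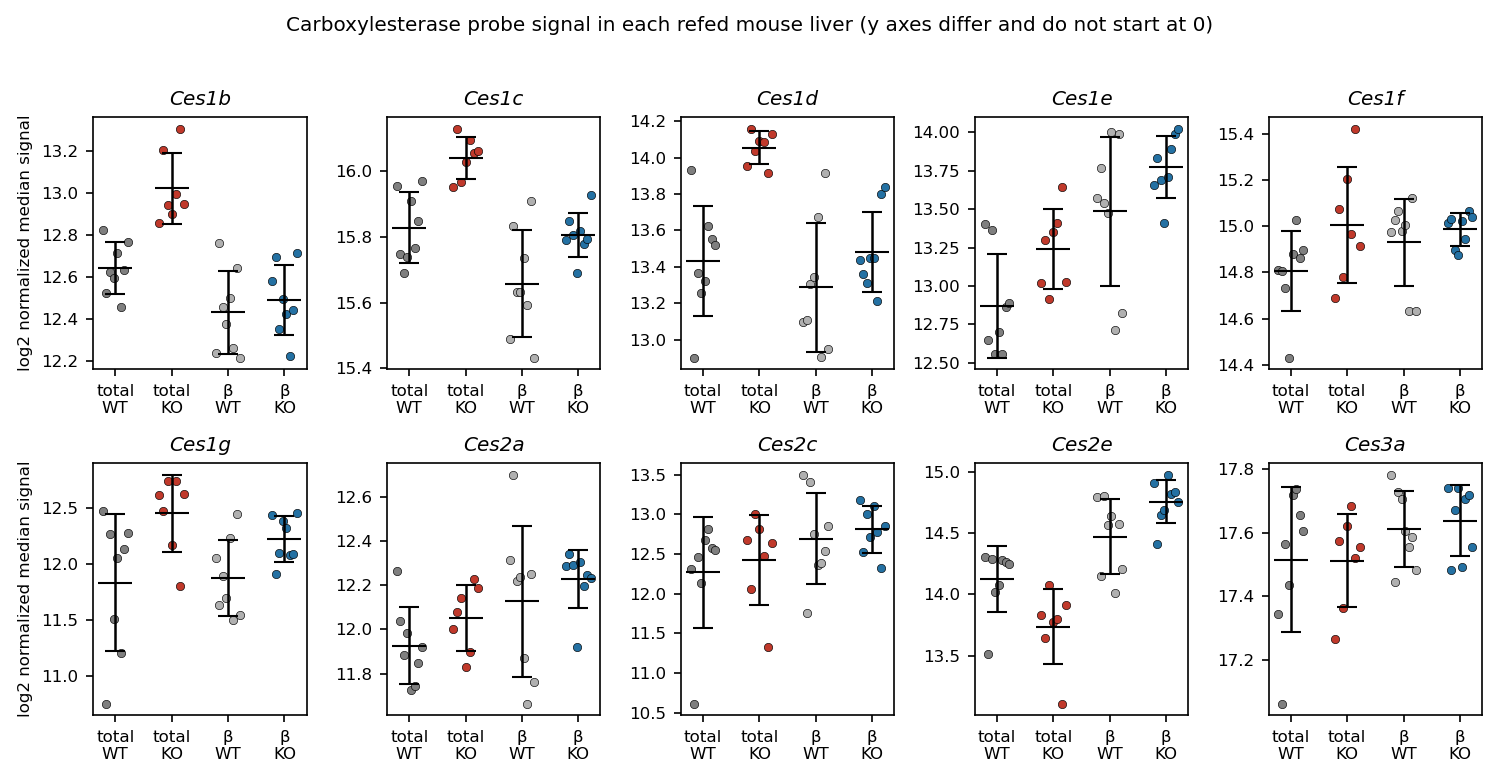
Signal of each member probe (log2 normalized median signal, y axis) in each mouse by genotype group (x axis). Points are mice, horizontal lines group means and bars SD. Ces1b is the only panel in which the total ChREBP-KO mice and their WT littermates do not overlap. WT replicate 2 of the total line is the low gray point in Ces1g, Ces2c and Ces2e.

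Since 4 of the 6 Ces1 members rose, their promoters were read from RefSeq (GRCm38.p6, 250 bases before to 50 after the start of the transcript). The table held 8 promoters of 7 members, 2 of them for Ces1b. No promoter of a member held CACGTG on either strand, while 7.15% of 32851 promoters did. CACGTG is the E-box from which the carbohydrate response element is built. An exact pair of that E-box spaced by 5 bases was found in 0 of the 32851 promoters. As no promoter of any gene held this exact pair, the search cannot tell whether an inexact element is present. Of 7 motifs searched on both strands, the octamer TTATGTAA was found in each Ces1 member with a promoter in the table, Ces1b, Ces1c, Ces1e and Ces1g, and also in Ces1a. This is a site type bound by basic leucine zipper factors such as Dbp, Tef, Hlf and Nfil3. It was in 5 of 6 Ces1 genes, the exception being Ces1h, in 0 of 6 Ces2 genes and in 0.938% of all promoters. The motifs were chosen by hand and the count was not tested. Counted from the transcript start, the octamer lies at -84 in Ces1b (-7 from its other start), -94 in Ces1c, -81 in Ces1e, -232 in Ces1g and -198 in Ces1a. Each match is shown in capitals with 16 bases on either side.
Ces1a: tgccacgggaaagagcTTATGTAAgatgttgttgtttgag
Ces1b: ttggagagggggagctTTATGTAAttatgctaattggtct
Ces1c: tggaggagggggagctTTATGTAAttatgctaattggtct
Ces1e: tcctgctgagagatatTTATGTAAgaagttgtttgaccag
Ces1g: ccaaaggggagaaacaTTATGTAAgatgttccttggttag
The whole promoters of Ces1b and Ces1c, whose longest identical run was 58 bases, are printed with those of Ces1g and of Ces2e, the member that fell.
Ces1b, chr8:93079891-93080190, minus strand: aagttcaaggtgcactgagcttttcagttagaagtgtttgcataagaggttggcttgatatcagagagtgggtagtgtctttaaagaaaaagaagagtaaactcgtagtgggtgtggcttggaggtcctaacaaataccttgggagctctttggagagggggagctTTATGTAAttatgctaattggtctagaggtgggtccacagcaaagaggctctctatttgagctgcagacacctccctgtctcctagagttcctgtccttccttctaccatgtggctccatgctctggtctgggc
Ces1c, chr8:93131234-93131533, minus strand: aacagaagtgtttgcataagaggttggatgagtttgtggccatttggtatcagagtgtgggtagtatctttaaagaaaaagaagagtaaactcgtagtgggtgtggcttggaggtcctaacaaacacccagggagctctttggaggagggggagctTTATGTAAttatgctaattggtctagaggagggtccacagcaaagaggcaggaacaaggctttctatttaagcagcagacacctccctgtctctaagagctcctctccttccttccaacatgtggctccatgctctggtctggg
Ces1g, chr8:93337160-93337459, minus strand: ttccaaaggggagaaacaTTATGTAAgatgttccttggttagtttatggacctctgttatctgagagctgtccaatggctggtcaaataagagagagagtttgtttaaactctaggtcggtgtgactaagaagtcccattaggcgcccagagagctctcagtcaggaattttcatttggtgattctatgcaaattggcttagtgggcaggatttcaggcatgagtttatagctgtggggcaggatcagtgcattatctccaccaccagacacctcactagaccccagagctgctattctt
Ces2e, chr8:104926010-104926309, plus strand: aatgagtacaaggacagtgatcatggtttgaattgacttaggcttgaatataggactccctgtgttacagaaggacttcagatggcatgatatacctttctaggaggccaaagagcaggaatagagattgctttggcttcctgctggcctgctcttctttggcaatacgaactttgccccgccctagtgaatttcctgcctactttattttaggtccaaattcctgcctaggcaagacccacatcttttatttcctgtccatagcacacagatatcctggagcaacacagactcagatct
The DR1 repeat read by nuclear receptors such as PPARα, the palindrome of Hnf1 factors and the octamer TTACGTAA were found in no carboxylesterase promoter, and TATAAA in 1 member, Ces1g, at -26 on the opposite strand. Of all promoters 0.0396%, 0.00913% and 0.119% held the first 3 of these and 13.6% held TATAAA. Binding was not measured on these arrays.

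Of the 4 Ces2 and Ces3 members none was called higher. Ces2e, an esterase of drugs and other small esters, was the member called lower. Its values ran from 13.51 through a median of 14.26 to 14.31 in WT littermates and from 13.11 through 13.80 to 14.08 in total ChREBP-KO mice. WT replicate 2 and knockout replicate 7 were low in their groups, all 7 knockout mice were at or below the WT median, and the groups overlapped. The means were 14.13 ± 0.27 (SD, n = 8) and 13.74 ± 0.31 (SD, n = 7), a difference of -0.39 (SE 0.13, limma adjusted p = 0.0272), or 1.31-fold lower. On scan day 1 it was -0.20 (adjusted p = 0.485) and on scan day 2 -0.61 (adjusted p = 0.0362). The call was lost without knockout replicate 7 (-0.28, adjusted p = 0.0887), WT replicate 1 (-0.36, adjusted p = 0.0505) or WT replicate 3 (-0.37, adjusted p = 0.0516), and with slide as a fixed block (-0.26, adjusted p = 0.291).

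Ces2a, a broad drug esterase, averaged 11.93 ± 0.17 (SD, n = 8) in WT littermates and 12.05 ± 0.15 (SD, n = 7) in knockout mice, a difference of 0.13 with a 95% interval of -0.10 to 0.35. Ces2c, a drug esterase that also hydrolyzes diacylglycerol and triacylglycerol, had the widest spread of all members, with a WT range of 10.62 to 12.82 and a knockout range of 11.33 to 13.01. Its difference of 0.16 (limma adjusted p = 0.708) came with an interval of -0.39 to 0.71 and became -0.08 without WT replicate 2. Ces3a, read by a probe that is also assigned to Ces3b, averaged 17.52 ± 0.23 (SD, n = 8) and 17.51 ± 0.15 (SD, n = 7). Its difference was -0.00, with an interval of -0.17 to 0.16 on the normalized scale. Quantile normalization gives probes of equal rank the same value on each array. Alb, a hepatocyte marker, stood at 18.956 in every mouse. Ces3a values recurred exactly, as with 17.742 in ChREBPβ-deficient replicates 1 and 4. The value 17.555 was shared by ChREBPβ-deficient replicate 8 and total ChREBP-KO replicate 8. The interval therefore does not bound a change in the amount of RNA.

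Among the 7 carboxylesterases on the array that passed the filter and were not members, Ces2g alone was called in the total line. It fell by 0.86 (SE 0.11, limma adjusted p = 3.3e-07), to 9.52 ± 0.24 (SD, n = 7) from 10.38 ± 0.29 (SD, n = 8). The knockout mice ran from 9.09 to 9.76 and the WT littermates from 9.82 to 10.76. The share of all probes separated in this direction was not counted. Ces2f, whose gene lies between Ces2e and Ces2g, had a difference of 0.11 (limma adjusted p = 0.437). Ces2b, whose probe overlaps that of Ces2c, had one of 0.18 (limma adjusted p = 0.686). In the Ces2 family the called probes were thus those of Ces2e and Ces2g, with Ces2f between them not called.

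**Figure D2:**
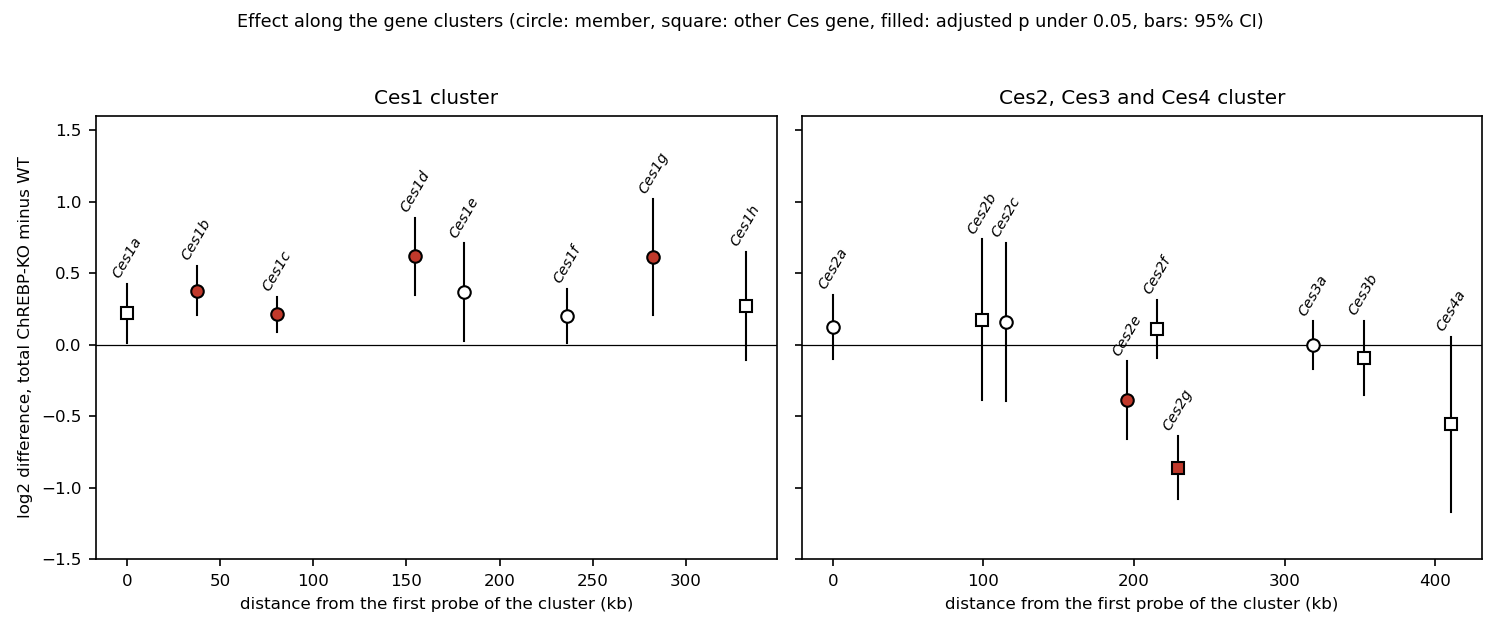
Difference in log2 signal between total ChREBP-KO mice and WT littermates (y axis) for each carboxylesterase probe against its distance from the first probe of its gene cluster (x axis, kb). Circles are members, squares other carboxylesterase genes, bars 95% intervals and filled symbols limma adjusted p under 0.05. Points of the Ces1 cluster are above 0, from 0.20 to 0.62, and in the other cluster Ces2e and Ces2g are filled below 0.

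In ChREBPβ-deficient livers 0 of 10 members were called by limma, where 0.00277% of all probes, or 1 of 36059, were called in either direction. The differences of the 10 members were all above 0, from 0.03 to 0.35, with a median of 0.13 against -0.00 over all probes. On scan day 1 alone 4 of them were below 0, Ces1b at -0.01, Ces1e at -0.05, Ces1f at -0.08 and Ces2a at -0.07. Ces1f was also below 0 with scaling to the 75th percentile (-0.02) and with slide as a fixed block (-0.002). So were Ces3a with the processed signal (-0.005) and Ces2c without WT replicate 2 (-0.02). Members varied together within groups, as given below, so that the 10 signs are not independent. WT replicates 6 and 8 of this line were low over the members, with mean deviations of -0.33 and -0.27 from their group means. Unadjusted p-values were under 0.05 for 2 members, Ces1c and Ces2e, and for 4.98% of all probes. Ces1c averaged 15.66 ± 0.16 (SD, n = 8) in WT littermates and 15.81 ± 0.07 (SD, n = 8) in ChREBPβ-deficient mice, a difference of 0.15 (limma adjusted p = 0.989). For Ces2e the means were 14.47 ± 0.31 (SD, n = 8) and 14.76 ± 0.18 (SD, n = 8), and 4 of 8 ChREBPβ-deficient mice were above every WT littermate. The intervals left room for changes of some size, as for Ces1g, at 0.35 with an interval of -0.05 to 0.74, and Ces1d, at 0.19 with an interval of -0.07 to 0.45.

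The difference of the knockout effects, total line minus β line, was tested directly. It was called for 1 of the 10 members, Ces2e, in the lower direction, where 8.08% of all probes were called lower and 7.02% higher. Ces2e differed from WT littermates by -0.39 in total ChREBP-KO mice and by 0.29, uncalled, in ChREBPβ-deficient mice, and the effects differed by -0.68 (SE 0.19, 95% interval -1.06 to -0.30, limma adjusted p = 0.0115). Over the 4 groups its mean was lowest in total ChREBP-KO and highest in ChREBPβ-deficient livers. This order also holds a difference between the lines. WT littermates of the total line minus those of the β line gave -0.35 (95% interval -0.61 to -0.08, limma adjusted p = 0.062), uncalled. The difference of effects was -0.25 (adjusted p = 0.658) on scan day 1 and -1.07 (adjusted p = 0.0149) on scan day 2, and -0.55 (adjusted p = 0.142) with slide as a fixed block. For Ces1b it was 0.32 (adjusted p = 0.0633) and for Ces1d 0.43 (adjusted p = 0.12), both uncalled by limma. With slide as a fixed block these were called, at 0.33 (adjusted p = 0.0351) and 0.59 (adjusted p = 0.0451). Outside the members Ces2g gave -0.83 (limma adjusted p = 0.000232).

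**Figure D3:**
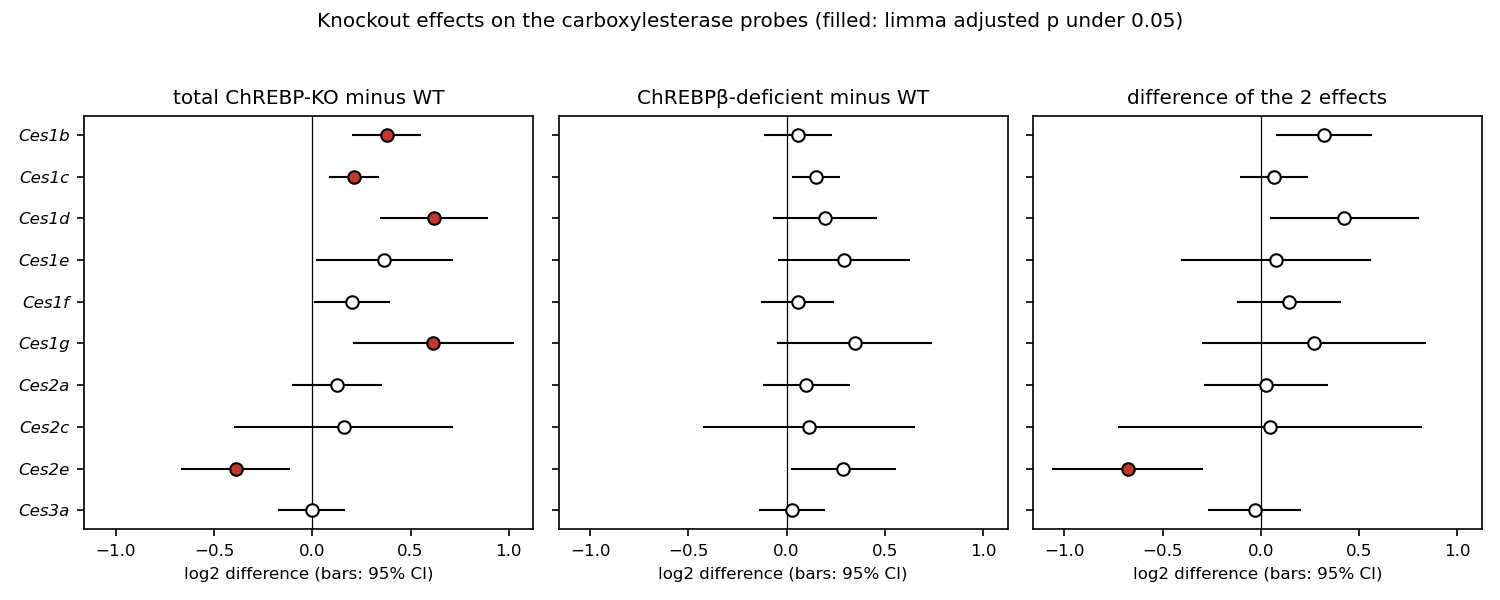
Difference in log2 signal (x axis) for each member (y axis) between total ChREBP-KO mice and WT littermates (left), between ChREBPβ-deficient mice and WT littermates (middle), and for the difference of these effects (right). Points are estimates, bars 95% intervals and filled points limma adjusted p under 0.05. Of the 10 members 5 are filled on the left, 0 in the middle and 1, Ces2e at -0.68, on the right.

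The WT littermates of the lines also differed. Ces1e was lower in WT mice of the total line, at 12.87 ± 0.34 (SD, n = 8), than in those of the β line, at 13.49 ± 0.49 (SD, n = 8), a difference of -0.61 (SE 0.16, limma adjusted p = 0.00877). The knockout differences of the same gene were 0.37 in the total line and 0.29 in the β line. Ces1c was higher by 0.17 (SE 0.06, limma adjusted p = 0.0366). The Ces1c call held under 6 of 15 alternatives (0.08 to 0.27) and in 22 of 31 fits with a mouse left out. The Ces1e call held under 12 of 15 (-0.78 to -0.52) and was lost on scan day 2 (-0.52, adjusted p = 0.216), with the exact Mann-Whitney test (adjusted p = 0.0701) and without the 3 WT mice high in Cela3b described below (-0.57, adjusted p = 0.0505). Thus 1 of 10 members was called higher and 1 lower, where 8.12% and 8.92% of all probes were. Line, litter and housing cannot be told apart in this comparison.

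Co-variation of the members within groups was examined next. After each mouse's value was taken as a deviation from its group mean, Pearson's r over the 31 mice was above 0 for 35 of 45 pairs of members, with a median of 0.36. Over all pairs of 36057 probes it was above 0 for 49.9%, with a median of -0.00. It was over 0.5 for 13 of the 45 pairs and for 1.74% of all pairs. Permutation of the mice within groups (100000 resamples, two-sided) gave a p adjusted over the 45 pairs under the threshold for 15 pairs, all of them positive, and for 12 of these with Spearman's rho as well. Ces2c and Ces2e, neighbors in the Ces2 cluster, had the highest value, an r of 0.80 (adjusted permutation p = 0.00075) and a rho of 0.66 (adjusted permutation p = 0.00427), and r was 0.65 without the 2 mice farthest from the median of Ces2c. Ces1b and Ces1c had an r of 0.75 and a rho of 0.73 (adjusted permutation p = 0.00045 for both, the raw p of 1e-05 being the smallest the resamples can give), and an r of 0.75 without 2 mice. Within the scan days r was 0.92 and 0.79 for Ces2c with Ces2e and 0.78 and 0.73 for Ces1b with Ces1c. Ces1g went with Ces2e, at an r of 0.71, although their means moved in opposite directions in total ChREBP-KO mice. That r was 0.53 without the 2 mice farthest from the median of Ces1g. Ces1g with Ces2c had an r of 0.53, which was 0.17 without those 2 mice, and a rho of 0.31 (adjusted permutation p = 0.204). Ces1b and Ces2c had the lowest r, -0.36 (adjusted permutation p = 0.12). Probes of 1 array share its labeling and hybridization, and the overlap of the Ces1b and Ces1c probes was given above.

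**Figure D4:**
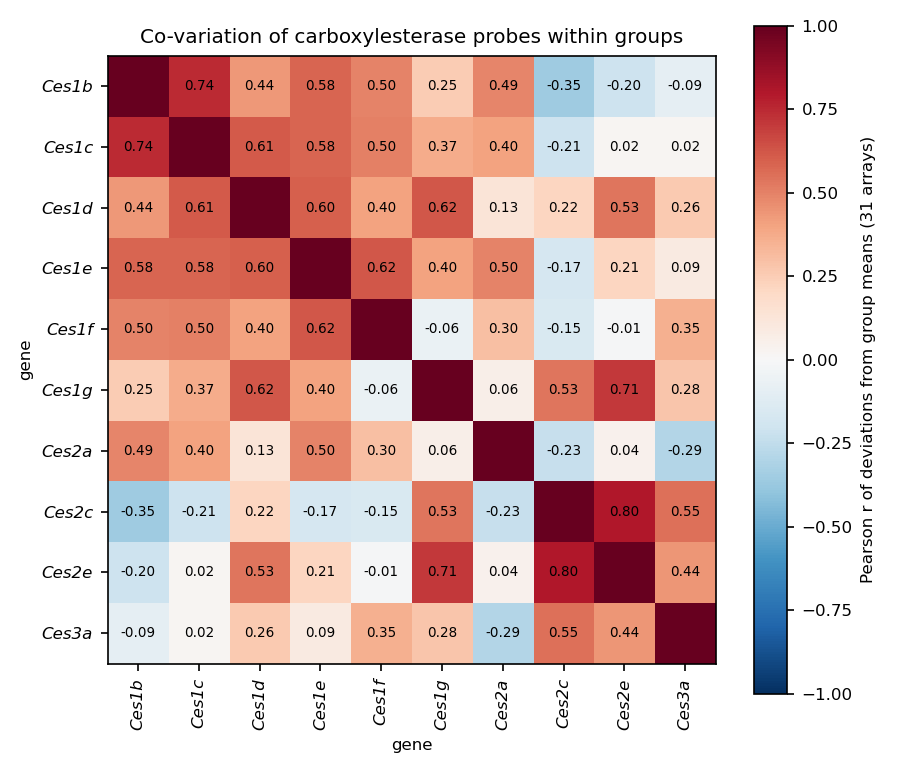
Pearson's r between members (both axes) of the deviations from group means over 31 mice, from -1 (blue) to 1 (red). The Ces1b to Ces1f block and the block of Ces2c, Ces2e and Ces1g are red, with 0.80 for Ces2c and Ces2e, and Ces1b with Ces2c is blue at -0.36.

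Some mice were low for many members at once. WT replicate 2 of the total line was the lowest of its group for 5 of the 10, with a mean deviation of -0.47, and WT replicate 1 was the highest for 6. In the β line WT replicate 6 was the lowest for 6 members, with a mean deviation of -0.33. WT replicate 8 of that line was the lowest for 2, with a mean deviation of -0.27. Total ChREBP-KO replicate 7 was the lowest of its group for 4 members and the highest for 4. WT replicates 2, 7 and 8 of the total line stood apart for Cela3b, a pancreatic elastase, at 10.41, 8.49 and 8.81 where the other 28 mice ran from 4.96 to 5.58. Of 8 exocrine pancreas markers 5 passed the filter, and Prss1, Cpa1 and Pnlip did not. Of these 5, Ctrb1, Cela3b and Cel fell in total ChREBP-KO mice, with differences of -0.77, -1.45 and -0.80, where 14.6% of all probes were called lower. The summed linear signal of the 5 ran from 17600 to 27300 in these WT littermates and from 14300 to 34200 in total ChREBP-KO mice. WT replicate 2, the highest for Cela3b, had a sum of 23900, and the highest WT sum was that of replicate 3. The sum thus did not follow Cela3b. Without the 3 WT mice high in Cela3b, left out after seeing the data, the 4 higher calls and the lower call of the total line were the same. Ces1d was then at 0.55 (adjusted p = 0.00479) and Ces2e at -0.46 (adjusted p = 0.0163).

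The adipocyte gene Cfd stood at 11.03 in WT replicate 2, 11.44 in WT replicate 5 and 12.95 in knockout replicate 6 of the total line. The other 12 mice of that line were between 4.59 and 6.01. In the β line Cfd ran from 6.44 to 10.42 in WT littermates and from 8.42 to 12.60 in ChREBPβ-deficient mice. None of the β line mice was left out for Cfd. Of 6 adipocyte markers 5 passed, Adipoq being the one left out. Their summed signal ran from 1830 to 6860 in WT littermates and from 2010 to 12500 in knockout mice of the total line. In the β line it ran from 2490 to 6410 in WT littermates and from 3440 to 13400 in ChREBPβ-deficient mice. Without the 3 total-line mice high in Cfd, also left out after seeing the data, Ces1g was at 0.43 (adjusted p = 0.104) and no longer called. Ces1b, Ces1c, Ces1d and Ces2e kept their calls, Ces2e at -0.51 (adjusted p = 0.00639). The tissue is taken from the sample titles. Of the hepatocyte markers 7 of 7 passed the filter, but so did 4 of 4 Kupffer cell and 3 of 3 endothelium markers. Passing the filter therefore does not tell tissues apart. Of the 7 hepatocyte markers 2, Ttr and Cps1, rose in total ChREBP-KO mice, by 0.17 and 0.44, where 14.5% of all probes were called higher. Red blood cell markers had a summed signal of 46400 to 98900 in the β line and 95200 to 191000 in the total line. The targeted gene was read by 3 probes, and the one that fell most gave -1.16 for the total line (limma adjusted p = 8.05e-13) and -0.46 for the β line (limma adjusted p = 0.0152). Another gave -0.59 (limma adjusted p = 0.00313) and -0.46 (limma adjusted p = 0.909), and the last gave -0.05 (limma adjusted p = 0.603) and -0.06 (limma adjusted p = 0.9998).

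Other enzymes with related substrates were counted for comparison. Over all probes 14.5% were called higher and 14.6% lower in total ChREBP-KO mice. Of 19 further ester and lipid hydrolases 7 rose and 4 fell in these mice. The 7 were the paraoxonases Pon1, Pon2 and Pon3, esterase D (Esd), the epoxide hydrolase Ephx2, the fatty acid amide hydrolase Faah and the monoacylglycerol lipase Abhd6, the last with the largest rise, 0.58 (SE 0.11, limma adjusted p = 0.000124). The 4 were Pnpla3, a lipid droplet hydrolase whose gene is induced by feeding, at -3.90 (SE 0.44, limma adjusted p = 5.1e-08), the lysophospholipase Pnpla7 at -1.09, the monoacylglycerol lipase Mgll at -0.47, and the bile salt lipase Cel at -0.80. Cel is also a pancreatic marker, and it stood at 9.33, 7.76 and 7.91 in WT replicates 2, 7 and 8, the mice high in Cela3b. The other WT littermates ran from 6.04 to 6.34 for Cel and the knockout mice from 6.06 to 6.42. Of 10 genes of VLDL assembly and lipid droplets 4 fell and 0 rose. They were Mttp, which loads lipid onto apolipoprotein B, at -0.42, Tm6sf2 at -0.56, and the droplet coat proteins Plin2 and Plin5 at -0.60 and -0.59. No gene of either list was called by limma in ChREBPβ-deficient mice.

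Of 15 genes of nuclear receptors and xenobiotic metabolism, a system under which several carboxylesterases are inducible, 7 rose and 2 fell in total ChREBP-KO mice. The shares over all probes were 14.5% higher and 14.6% lower. The receptors Nr1i3 (CAR), Ahr and Ppara rose by 1.17, 1.24 and 0.69. Between WT littermates, total line minus β line, Ppara differed by -0.69 (limma adjusted p = 0.00142). Nr1i3 and Ahr were uncalled there, at -0.15 (limma adjusted p = 0.549) and -0.09 (limma adjusted p = 0.729). The enzymes Cyp2b10, Cyp3a11 and Cyp2a5 rose by 3.21, 0.75 and 1.68, and the P450 reductase Por by 0.81. Uncalled genes of the list included Cyp2c29 (0.13, limma adjusted p = 0.294), Nr1i2 (0.015, limma adjusted p = 0.948) and Rxra (0.17, limma adjusted p = 0.23). Whether the enzymes rose through the receptors that rose was not tested. The bile acid receptor Nr1h4 fell by 0.31 (limma adjusted p = 0.0279) and Gusb, β-glucuronidase, by 0.52 (SE 0.07, limma adjusted p = 1.97e-06), while its partner Ces1e was not called. Median differences over the hydrolase, VLDL and droplet, and xenobiotic lists were 0.11, -0.18 and 0.17. Of the sex-biased liver genes, the female-biased Cyp2b9 and Cyp3a41a rose by 3.62 and 0.59 and the male-biased Elovl3 fell by 1.41, 1 of 4 male and 2 of 2 female genes that passed.

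For the 3 members with the largest called differences, the genes whose probes followed them most closely over the 31 mice were listed by Pearson's r, as a description. Group differences are part of this r, and r of the deviations from group means is given second. Ces1d was followed by Dchs1 (0.84, 0.72), Mpc2, a subunit of the mitochondrial pyruvate carrier (0.83, 0.59), and Arpp19 (0.83, 0.64). Ces1g was followed by Mfsd3 (0.88, 0.83), C2cd2 (0.86, 0.84) and the cytochrome P450 Cyp2c54 (0.83, 0.78). Ces2e was followed by Fam73b (0.93, 0.78), Nudt1, which hydrolyzes oxidized nucleotides (0.92, 0.73), and Myo5b, a myosin motor (0.92, 0.80). The genes named for Ces1d and Ces1g were higher in total ChREBP-KO mice by 0.16 to 0.53, and those named for Ces2e had differences of -0.34 to -0.23.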

How the data were processed

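Livers of 31 mice were measured on one-color Agilent arrays (Cy3), 1 array per mouse. The authors read the scanned images with Agilent Feature Extraction 10.10.1.1, and the deposited intensity values are spot signals that were not normalized between arrays. The weight filter was built from the deposited flags of spots found, significantly positive and well above background. Flags of non-uniform spots were not part of it. A second deposited file gives log2 values that the authors imported with limma, filtered by weight and quantile normalized with preprocessCore, with column medians of 7.504 to 7.511 over 36057 probes. It served as an alternative, and for the members it deviated from the values used here by at most 0.102.

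Here log2 of the median spot signal was used, with no background removed. A spot needed full weight on at least 26 arrays or at least 6 of one group. Arrays were quantile normalized on the log2 scale, and the median of same-named probes left 36059 probes. A model of the 4 groups was fitted with limma 3.58.1 (R 4.3.3, data.table version 1.17.8), and p-values were adjusted by Benjamini-Hochberg over all probes. Where a gene had several probes, the one with the highest mean was used. Every member probe was well above background on all 31 arrays and none was saturated. Arrays lay on 15 slides and were scanned on 2 days, each day holding all groups. Co-variation was computed with Python 3.11.15 and figures with matplotlib 3.10.9. Replicates are separate mice, and groups were taken from the sample titles.

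The members, the gene lists and the tests were chosen with earlier results of these data known. Named genes were all members, the other carboxylesterases, list genes that were called and some uncalled list genes given beside them. For the 3 members with the largest called differences the 3 most similar genes by Pearson's r were also named. Alternatives covered signal, background, normalization, filter, deposited values, slide, scan day, replicate number, separate fits, an exact Mann-Whitney test, a fold threshold and leaving out single mice.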

Additional observations from a re-analysis of the deposited data

Results flagged for a closer look

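Of 40 groups of member values examined for a mouse far from the rest, 3 held one, where chance gives about 1 in 20. Ces2c stood at 10.615 in WT replicate 2 of the total line, and the other WT littermates at 12.135 to 12.819. Ces2e stood at 13.511 in the same mouse, and the others at 14.021 to 14.309. Ces2a stood at 11.921 in ChREBPβ-deficient replicate 4, and the others at 12.196 to 12.339.

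The knockout effects of the lines differed for Ces2e by -0.677 (limma adjusted p = 0.0115) and for Ces2g by -0.828 (limma adjusted p = 0.000232), by a test of the difference itself.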

How the results depend on the processing

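Ces1b was called in the total line under 16 of 16 alternatives (0.33 to 0.44), Ces1d under 15 (0.51 to 0.72), Ces1c under 14 (0.17 to 0.27), Ces2e under 13 (-0.61 to -0.20) and Ces1g under 11 (0.43 to 0.84). With each mouse left out in turn Ces1b, Ces1c, Ces1d and Ces1g were called in 31 of 31 fits and Ces2e in 28. The cause of the changes below was not tested.

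Members called higher and lower in the total line, 4 and 1, became 4 and 0 with slide as a fixed block, 3 and 0 with the exact Mann-Whitney test, 2 and 0 on scan day 1 or with a fold of at least 1.5, and 1 and 1 on scan day 2. The deposited values gave 5 and 1, Ces1f being the one added (0.222). With each mouse left out they were 4 to 5 higher and 0 to 1 lower. For the difference of effects, slide as a fixed block gave 2 higher (Ces1b 0.33, Ces1d 0.59) and 0 lower, and scan day 1 gave 0 lower. Leaving out mice gave 0 to 1 higher and 1 lower. Between WT littermates the higher count was 0 with slide as a fixed block, either scan day, Mann-Whitney, the fold threshold or the processed signal. It was also 0 with no filter, with separate fits, or without the 3 total-line mice high in Cela3b or in Cfd. The lower count was 0 on scan day 2, with Mann-Whitney and without the mice high in Cela3b. Leaving out mice gave 0 to 2 higher and 1 to 2 lower. In the β line the counts were 0 and 0 throughout.

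The differences that changed sign were all uncalled, and some were not small, such as Ces1e in the β line at 0.291 and Ces2c in the total line at 0.161. For Ces3a in the total line they were 0.016 with deposited values, 0.004 with slide as a random and 0.037 as a fixed block, 0.005 with scan day as a block, 0.105 on scan day 1 and 0.003 with the replicate block. Other Ces3a values were -0.005 (β line, processed signal), 0.032 and 0.094 (difference of effects, slide fixed and scan day 1) and 0.078 (WT littermates, scan day 2). Ces1f in the β line gave -0.024 with scaling to the 75th percentile, -0.002 with slide fixed and -0.084 on scan day 1, and 0.075 between WT littermates on scan day 2. Ces1d between WT littermates gave -0.128 with slide fixed. Scan day 1 gave -0.03 for Ces2a in the total line and -0.01, -0.052 and -0.072 for Ces1b, Ces1e and Ces2a in the β line. Scan day 2 gave -0.511 for Ces2c in the total line, -0.017 and -0.539 for Ces1c and Ces2c in the difference, and 0.029 for Ces1g between WT littermates. Without the mice high in Cela3b Ces2c was -0.051 (total line) and -0.167 (difference) and Ces1g 0.027 (WT littermates). Without the total-line mice high in Cfd, Ces2c was -0.053 and -0.169, Ces1e -0.019 (difference) and Ces1g 0.102 (WT littermates). Leaving out single mice, ranges that crossed 0 were -0.076 to 0.344 for Ces2c and -0.068 to 0.037 for Ces3a in the total line, -0.018 to 0.231 for Ces2c in the β line, -0.056 to 0.092, -0.192 to 0.227 and -0.096 to 0.01 for Ces2a, Ces2c and Ces3a in the difference, and -0.132 to 0.113 for Ces1g between WT littermates.

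The labels give no pairing of the mice by replicate number. Of same-numbered pairs, 2 of 7 in the total line (r -0.215 to 0.241) and 6 of 8 in the β line (-0.156 to 0.533) correlated over 0.1, and the best match was the same number for 1 of 7 and 4 of 8. Not every pair passed, so the numbers were not used as pairs. With the replicate block the total line kept 4 higher and 1 lower (Ces2e -0.365), the β line 0 and the difference of effects 0 higher and 1 lower. That block could not be fitted between WT littermates. The mean of a gene's probes gave no separate value, each member having 1 probe, and Mann-Whitney and separate fits were not run for the difference of effects.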
